A study of Mus musculus with 6 samples.

Results

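Cytokine receptors that signal through STAT3 and STAT5 were followed in CD8+ T cells through 10 genes, taken by symbol: the IL-6 receptor genes Il6ra and Il6st, the transcription factor genes Stat3, Stat5a and Stat5b, the feedback inhibitor genes Socs1, Socs2, Socs3 and Cish, and the kinase gene Pim1. All 10 were matched to an NCBI gene number, were listed in each of the 6 libraries and passed the filter on low values, out of 16749 genes listed in at least 1 library and 10890 tested. RNA came from C57BL/6 mice. Of the libraries, 3 were of the genotype Cd4creId2f/f, called knockout here, and 3 were of the genotype Id2f/f without Cre, called WT. Every mouse carried a tumor and was given oxaliplatin (a DNA-damaging platinum drug), and the CD8+ T cells were sorted from the iLN (the submitters' abbreviation). The labels give no age, tumor type, dose or time. Cd4-Cre is switched on in the thymus before T cells become CD4 or CD8 cells, so Id2 is lost long before the cells meet a tumor. Cre was present only in the knockout mice, and its own effect cannot be told apart from that of losing Id2.

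In this pathway a cytokine brings receptor chains together and the bound JAK kinases phosphorylate the receptor. IL-6 binds the alpha chain encoded by Il6ra, and the pair engages the signalling chain gp130, encoded by Il6st and shared by most of the IL-6 family. STAT proteins dock on the chains, are phosphorylated, and move as dimers to the nucleus: IL-6 works mostly through STAT3, whereas IL-2, IL-7 and IL-15 work mostly through STAT5A and STAT5B. Among the genes that STATs switch on are their own inhibitors. SOCS1 and SOCS3 block JAK kinases, and CISH and SOCS2 bind phosphorylated receptors and recruit the ubiquitin machinery. PIM1 is a serine/threonine kinase that promotes survival and growth and is also induced by STATs.

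STAT dimers bind a palindrome whose usual form is TTCNNNGAA. It was looked for on both strands of the RefSeq promoter windows (GRCm38.p6, which is mm10), which reach from 250 bases before to 50 bases after each start site. There were 12 windows for 9 of the 10 members, and Socs2 had none. Cish had 2 matches in its window and Socs3 had 1. Among all 32851 windows 8.3% held at least 1 match and 0.457% held 2 or more. The form with 1 more central base, present in 6.95% of all windows, was in none of the 12. The matches of Cish lie just after its start site, on the plus strand at chr9:107296655-107296682, where base 1 is the first transcribed base, and they begin at bases 1 and 12. The match of Socs3 begins 154 bases before a start site, on the minus strand at chr11:117969503-117969529. These stretches are shown because Cish was the member with the smallest p and Socs3 is a related inhibitor that did not pass. Capitals mark TTCNNNGAA.
Cish start site: agttTTCCTGGAAagTTCTTGGAAatct
Socs3 upstream: aaaccagccTTCTTAGAAgggaggggg

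E proteins, the factors that Id2 holds off DNA, bind E-box motifs, of which CAGCTG and CAGGTG are common forms. On either strand, CAGCTG was in 16.3% of all windows and CAGGTG in 20.2%. Among the members, 1 window each of Stat3, Stat5a and Stat5b held CAGCTG, and 1 window each of Il6ra and Stat5a held CAGGTG. The CAGCTG matches of Stat5a and Stat5b lie in a stretch of 55 bases with 49 identical bases (89.1%), within 250 bases before a start site of each gene. It is shown because the pair are neighbouring close copies. Stat5b, Stat5a and Stat3 lie side by side on chromosome 11, at chr11:100780731-100859004, chr11:100859351-100885169 and chr11:100886806-100939594, with 346 and 1636 bases between neighbours in RefSeq. In the GENCODE annotation the spans of Stat5a and Stat3, which lie on opposite strands, overlap by 72 bases. The stretch of Stat5a is on the plus strand at chr11:100860418-100860472 and that of Stat5b on the minus strand at chr11:100822573-100822627. Capitals mark CAGCTG. A match is a description of letters and not a measured binding site.
Stat5a shared stretch: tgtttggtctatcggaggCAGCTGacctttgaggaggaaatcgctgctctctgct
Stat5b shared stretch: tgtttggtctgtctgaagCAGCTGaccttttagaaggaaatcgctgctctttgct

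The libraries held 7699181 to 7990095 expected counts in knockout and 8307284 to 8495123 in WT. Id2 itself had 1.67, 2.64 and 2.12 FPKM (fragments per kilobase of transcript, scaled to library size) in knockout, against 370.98, 146.76 and 149.01 in WT. Markers of CD8+ T cells were high in every library, with summed levels of 2220 to 2778 FPKM in knockout and 2278 to 2659 in WT. RNA of B cells was also present: the 8 markers listed, led by Cd74, summed to 477, 1984 and 428 FPKM in knockout and to 637, 2092 and 2460 in WT, and 0 of the 7 tested were called by edgeR, DESeq2 or limma or had an unadjusted p under 0.05. The 6 cycling cell markers, led by Birc5, all fell (6 of 6), with sums of 24.3 to 53 FPKM in knockout and 212 to 358 in WT. Naive T cell markers, led by Ccr7, summed to 3139 to 3301 FPKM in knockout and 2116 to 2646 in WT, and Tcf7 was the 1 of 4 that rose. Sums of the other lists were 75.7 to 88.3 against 79.9 to 90.9 FPKM for plasma cells (led by Xbp1), 29.9 to 34.3 against 22.6 to 37.8 for myeloid cells (Lyz2), 3.45 to 6.73 against 12.7 to 20.6 for dendritic cells (Itgax), 8.94 to 10 against 8.75 to 13.2 for CD4 and regulatory T cells (Cd40lg), 7.49 to 8.82 against 6.69 to 9.12 for NK cells (Tyrobp) and 42.6 to 46.9 against 36.4 to 45.8 for stromal and endothelial cells (Pecam1), knockout against WT. Tnfrsf17 of plasma cells and Clec9a of dendritic cells were at 0 in every library. Of the tested markers, Jchain fell among those of plasma cells (1 of 3), Itgax and Zbtb46 among those of dendritic cells (2 of 3), Sparc among those of stromal cells (1 of 2) and Thy1 among those of CD8+ T cells (1 of 6). Itgax and Sparc reached the filter's minimum of 1 FPKM in the WT libraries alone, so they were tested only through the group where they are high. No myeloid (0 of 3), CD4 and regulatory T cell (0 of 3) or NK cell marker (0 of 2) was called by edgeR, DESeq2 or limma. At an unadjusted p under 0.05 in edgeR, 1 myeloid marker was higher and 1 lower, and 0 of the other 2 lists were either.

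Of the 10 members 2 rose and 2 fell in knockout cells by edgeR. Il6st and Stat3 were the members that rose, and Cish and Socs2 those that fell. Socs2 passed the filter on low values through the WT libraries alone. Across all genes tested 11.9% were called, 3.14% higher and 8.77% lower. The median log2 fold change, knockout over WT, was 0.34 over the members and 0.01 over all genes tested. A positive value was seen in 8 of the 10 members and in 5654 of all 10890 genes tested. The knockout and WT levels in FPKM did not overlap for 5 members: Il6st, Stat3 and Stat5b were above WT in every knockout library and Cish and Socs2 below. Without overlap, 15.3% of all genes tested were above and 16.8% below. Fewer cells with a transcript and less RNA per cell cannot be told apart in such bulk samples.

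**Figure D1:**
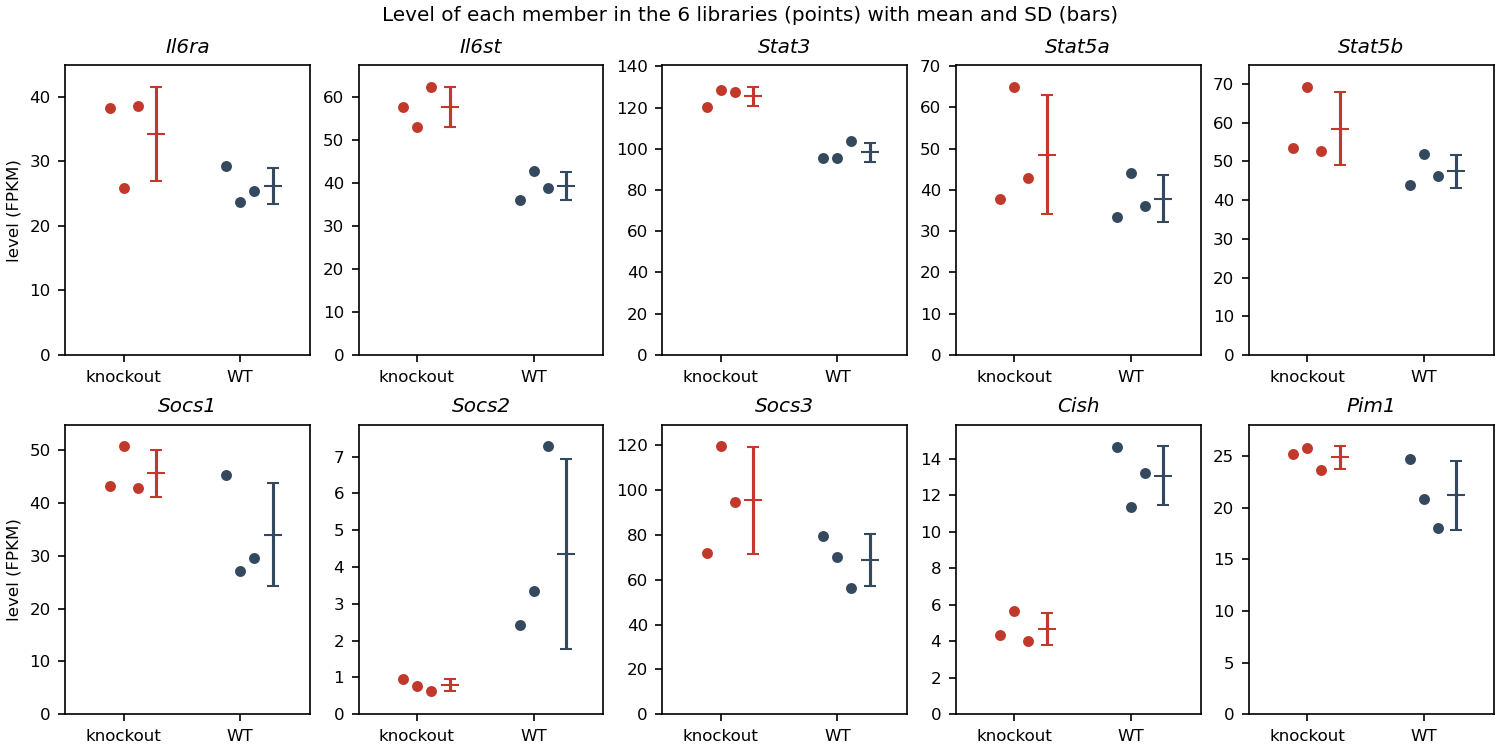
Level in FPKM of the 10 members in 3 knockout libraries (red, left) and 3 WT libraries (dark, right); points are libraries, bars are mean and SD, and each axis starts at 0. Cish and Socs2 are lower in every knockout library than in any WT library, and Il6st, Stat3 and Stat5b higher. Of these, Stat5b did not pass the test.

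Of the IL-6 receptor chains, Il6st passed the test and Il6ra did not, and the difference between them was not tested. Il6st, which encodes the signalling chain gp130, had 57.58, 52.93 and 62.31 FPKM in the knockout libraries, against 36.07, 42.67 and 38.85 in WT. Every knockout library was above every WT library. The means were 57.6 ± 4.69 and 39.2 ± 3.31 FPKM (SD, n = 3 each), 1.46-fold higher in knockout, with a log2 fold change of 0.54 (SE 0.11, 95% interval 0.3 to 0.79, edgeR adjusted p = 0.00976). Without knockout replicate 3 the adjusted p was 0.055. Il6ra, which encodes the chain that binds IL-6, had 38.3, 25.83 and 38.6 FPKM in knockout and 29.24, 23.74 and 25.45 in WT. Knockout replicate 2 fell inside the WT range and the other two lay above it. The log2 fold change of 0.38 did not pass (95% interval -0.01 to 0.77, adjusted p = 0.195). Knockout replicate 2 was also the knockout library with the highest B cell marker sum, 1984 FPKM. Without it Il6ra stood at 0.56 (adjusted p = 0.016), and with the B cell marker sum as a covariate at 0.11 (adjusted p = 0.606). There Il6st stood at 0.49 (adjusted p = 0.0243). The naive T cell marker sums given above were likewise higher in every knockout library, and their part in the levels of Il6st, Stat3 and the other members was not tested.

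Within a library the alpha chain was the less abundant of the pair per length. The ratio of Il6ra to Il6st FPKM was 0.665, 0.488 and 0.62 in knockout and 0.811, 0.556 and 0.655 in WT. These ranges overlap.

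Stat3, the factor through which gp130 mainly signals, was the most abundant member in both genotypes. Its level was 120.04, 128.46 and 127.75 FPKM in knockout and 95.45, 95.67 and 103.62 in WT, again without overlap. The means of 125 ± 4.67 and 98.3 ± 4.66 FPKM (SD, n = 3 each) differed 1.26-fold, a log2 fold change of 0.34 (SE 0.09, 95% interval 0.13 to 0.54, adjusted p = 0.0427). This call lies close to the threshold. It ended without any 1 of the 6 libraries, at adjusted p-values of 0.0511 (without knockout replicate 2) to 0.166 (without knockout replicate 3), while the log2 fold change stayed between 0.3 and 0.37. With the B cell marker sum as a covariate the adjusted p was 0.0636.

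The STAT5 genes had the same sign without passing. Stat5a had 37.8, 65.04 and 42.87 FPKM in knockout and 33.46, 44.22 and 36.07 in WT. Knockout replicate 2 was the highest and the groups overlapped. The log2 fold change of Stat5a was 0.34 (95% interval -0.05 to 0.73, adjusted p = 0.248). Stat5b had 53.41, 69.3 and 52.66 FPKM in knockout and 43.9, 52.04 and 46.31 in WT. Knockout replicate 2 was again the highest, and the lowest knockout library lay just above the highest WT library. The log2 fold change of Stat5b was 0.29 (95% interval 0.04 to 0.55, adjusted p = 0.127). With the B cell marker sum as a covariate both passed, at 0.51 (adjusted p = 0.0383) for Stat5a and 0.39 (adjusted p = 0.0438) for Stat5b. Without knockout replicate 2 the log2 fold changes were 0.1 and 0.19.

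Stat5a and Stat5b encode near-identical proteins, and they were the members with expected counts that are not whole numbers in all 6 libraries, as when reads that match several genes are divided. Summed into 1 feature, a choice made after the data were seen, the pair stood at a log2 fold change of 0.31 (adjusted p = 0.167). The ratio of Stat5a to Stat5b was 0.708, 0.939 and 0.814 in knockout and 0.762, 0.85 and 0.779 in WT. Stat3 stood at 1.32, 0.956 and 1.34 times the summed STAT5 level in knockout, against 1.23, 0.994 and 1.26 times in WT. In each genotype replicate 2 had the lowest of these ratios, and the groups overlapped.

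Among the inhibitors, Cish had the smallest p and fell in every knockout library. The level of Cish was 4.34, 5.65 and 3.99 FPKM in knockout, against 14.62, 11.38 and 13.22 in WT. The counts behind these levels were 102, 129 and 94 in knockout and 360, 292 and 330 in WT. The means were 4.66 ± 0.875 and 13.1 ± 1.63 FPKM (SD, n = 3 each), 2.85-fold lower in knockout, with a log2 fold change of -1.51 (SE 0.17, 95% interval -1.89 to -1.13, adjusted p = 0.00049). Leaving out each library in turn gave -1.64 to -1.4, all called. In GENCODE the span of Cish is overlapped by the antisense gene Gm17041 over 1459 bases and by Gm17040 on the same opposite strand over 1167 bases. Antisense genes also overlap Pim1 (Gm26885, 1173 bases) and Il6ra (Gm42809, 281 bases). The sources used here do not say whether strand was used in counting, so reads of these genes and their partners, and of Stat3 and Stat5a where they overlap, cannot be told apart.

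Socs2, the closest relative of Cish in the family, fell further but from a low level. Its level was 0.96, 0.77 and 0.64 FPKM in knockout and 2.42, 3.36 and 7.29 in WT. Only the WT libraries reached the filter's minimum of 1 FPKM, so Socs2 was tested only through the group where it is high. The counts were 17, 13 and 11 in knockout and 45, 62 and 135 in WT. No knockout library reached the lowest WT library, and WT replicate 3 stood well above the other two. The log2 fold change was -2.46 (SE 0.44, 95% interval -3.44 to -1.47, adjusted p = 0.00597), 5.5-fold lower in knockout. Without WT replicate 3 it was -1.87 (adjusted p = 0.0158). With the B cell marker sum as a covariate Cish stood at -1.5 and Socs2 at -2.05, both called. The falls of cycling markers given above ran beside those of Cish and Socs2, and their part in them was not tested.

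The JAK inhibitors Socs1 and Socs3 had positive values that did not pass. Socs1 had 43.25, 50.81 and 42.78 FPKM in knockout and 45.26, 27.17 and 29.6 in WT. WT replicate 1 lay within the knockout range and the other two lay below it. The log2 fold change of Socs1 was 0.4 (95% interval -0.05 to 0.84, adjusted p = 0.232), and 0.71 without WT replicate 1 (adjusted p = 0.0128). Socs3 had 72.02, 119.72 and 94.62 FPKM in knockout and 79.5, 70.18 and 56.44 in WT, where knockout replicate 1 lay inside the WT range. Its log2 fold change was 0.45 (95% interval 0.05 to 0.86, adjusted p = 0.141). For neither does the interval include a fall of the size seen in Cish.

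Pim1 differed least among the members. It had 25.14, 25.8 and 23.65 FPKM in knockout and 24.69, 20.84 and 18.05 in WT. WT replicate 1 lay within the knockout range. The log2 fold change was 0.21 (95% interval -0.11 to 0.54, adjusted p = 0.388).

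**Figure D2:**
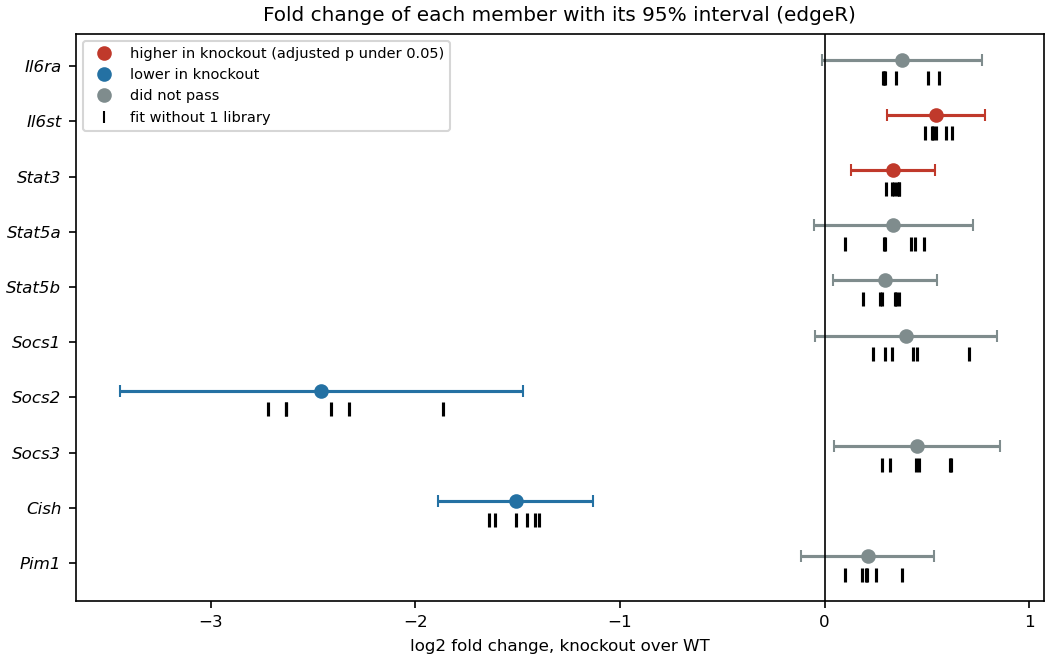
Log2 fold change (knockout over WT, edgeR) of the 10 members; circles are the estimates with 95% intervals, red for higher, blue for lower and grey for those that did not pass, and black ticks are the fits without 1 library. Cish at -1.51 and Socs2 at -2.46 stand on the negative side, and the other 8 members lie between 0.21 and 0.54.

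Relative to the STAT5 genes, Cish was lower in knockout cells. The ratio of Cish to the summed FPKM of Stat5a and Stat5b was 0.0476, 0.0421 and 0.0418 in knockout, against 0.189, 0.118 and 0.161 in WT, with no overlap. As the summed STAT5 genes were not called, this mostly restates the fall of Cish and is no separate evidence. The ratio of Cish to Socs2 was 4.52, 7.34 and 6.23 in knockout and 6.04, 3.39 and 1.81 in WT. These ranges overlap. The ratio of Socs3 to Socs1 was 2.08 ± 0.365 in knockout and 2.08 ± 0.44 in WT (SD, n = 3 each).

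**Figure D3:**
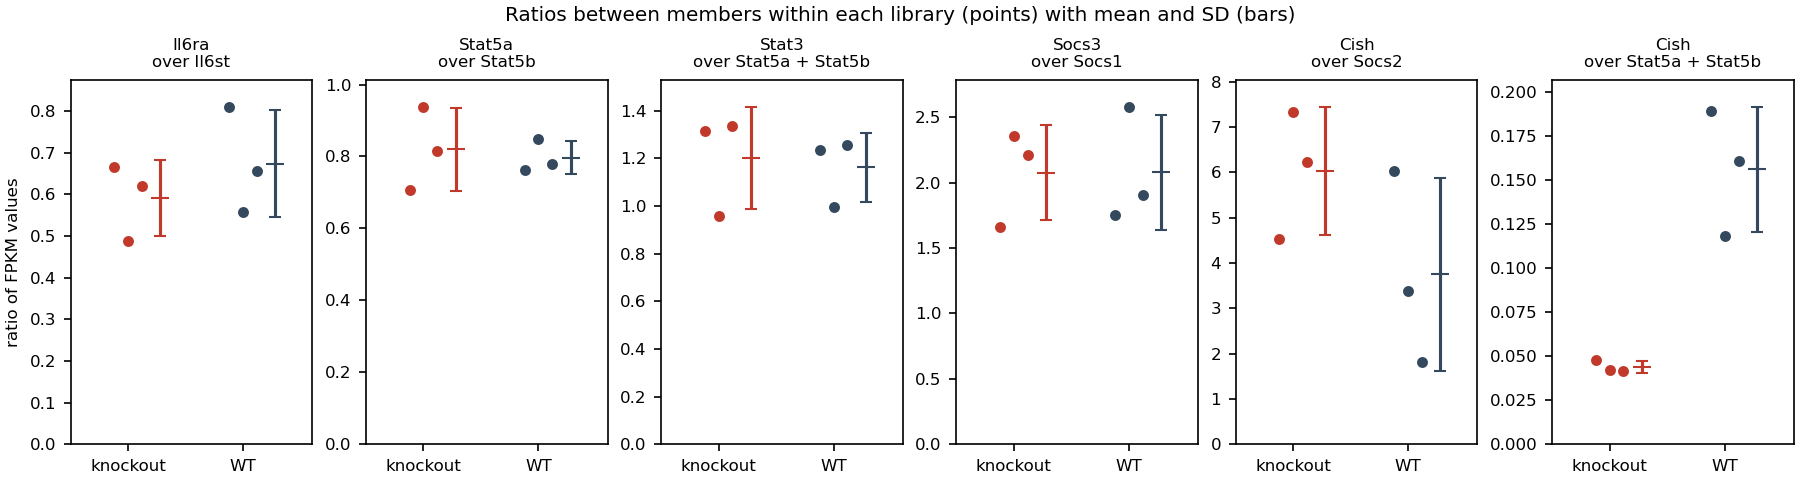
Ratios of FPKM values between members within each library, for 3 knockout (red, left) and 3 WT libraries (dark, right); points are libraries and bars are mean and SD. Of the 6 ratios, the groups are apart for Cish over the summed STAT5 genes, at 0.0438 ± 0.00328 in knockout and 0.156 ± 0.0356 in WT. That ratio mostly restates the fall of Cish.

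The order of the levels per length was the same in both genotypes: Stat3, Socs3, Stat5b, Il6st, Stat5a, Socs1, Il6ra, Pim1, Cish and Socs2. In knockout the mean ran from 125 FPKM for Stat3 to 0.79 for Socs2, and in WT from 98.3 to 4.36. In WT, 91.5% of all genes tested had a lower mean than Stat3, 52.5% than Cish and 25.6% than Socs2. Neighbours whose libraries overlapped in knockout were Stat5b with Il6st, Il6st with Stat5a, and Stat5a with Socs1. In WT these were Il6st with Stat5a, Stat5a with Socs1, Socs1 with Il6ra, and Il6ra with Pim1. The step down to Cish, and from Cish to Socs2, was apart in both genotypes.

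The rest of the pathway was read from lists of genes by role. Some genes, such as Il2ra and Prdm1, stand on several lists and are counted in each. Beside the counts below stands the share over all genes tested, 3.14% called higher and 8.77% lower by edgeR. A short list with no call is not far from that share. Of 18 genes for IL-6 family cytokines, receptors and sheddases, 13 were listed and 9 tested. None was called higher by edgeR, against 1 at an unadjusted p under 0.05, 1 by DESeq2 and 0 by limma, and 1 fell. Adam17, the sheddase that cuts the IL-6 receptor from the cell surface, fell to 14.2 ± 2.55 FPKM in knockout, against 22.3 ± 3.75 in WT (SD, n = 3 each; log2 fold change -0.67, adjusted p = 0.019). Leaving out knockout replicate 1, knockout replicate 3 or WT replicate 3 ended that call, at adjusted p-values of 0.0743, 0.105 and 0.0851. Il6 itself was not listed in any of the 6 libraries. The IL-27 receptor gene Il27ra, whose protein pairs with gp130, had 135 ± 11.1 FPKM in knockout and 108 ± 2.72 in WT (SD, n = 3 each; log2 fold change 0.31, adjusted p = 0.092).

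Of 12 genes listed for receptors and cytokines that activate STAT5, 7 were tested, and 1 rose and 1 fell by edgeR. By DESeq2 2 rose, and 3 were higher at an unadjusted p under 0.05 in edgeR. The list goes beyond IL-2, IL-7 and IL-15, named above as working mostly through STAT5, and also holds Il4ra and Il21r. Il4ra, the IL-4 receptor alpha chain, rose to 217 ± 36.9 FPKM in knockout, against 136 ± 11.4 in WT (SD, n = 3 each; log2 fold change 0.66, adjusted p = 0.00781). Il2ra, the alpha chain that gives the IL-2 receptor its high affinity, fell to 4.24 ± 0.434 FPKM in knockout, against 17 ± 3.66 in WT (log2 fold change -2.02, adjusted p = 0.000185). The other chains of that receptor did not pass: the log2 fold change was -0.15 for Il2rb (adjusted p = 0.627) and 0.03 for Il2rg (adjusted p = 0.918). The IL-7 receptor gene Il7r had -0.12 (adjusted p = 0.638). Il21r (0.31, edgeR adjusted p = 0.0974) and Il15ra (0.63, edgeR adjusted p = 0.136) lay above WT in every knockout library without passing.

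Of 8 JAK kinases and other STATs, 1 rose by edgeR and 2 by DESeq2, with 3 higher at an unadjusted p under 0.05 in edgeR. The number that fell was 0 by edgeR, DESeq2 or limma or at an unadjusted p under 0.05. Jak1, the kinase that gp130 and the IL-2 receptor share, rose to 363 ± 21.5 FPKM in knockout, against 271 ± 22.2 in WT (SD, n = 3 each; log2 fold change 0.41, adjusted p = 0.0408). Its call was lost with the B cell covariate (adjusted p = 0.0684). It was also lost when knockout replicate 1, knockout replicate 3, WT replicate 2 or WT replicate 3 was left out, at 0.105, 0.155, 0.0858 and 0.14. Jak3 lay above WT in every knockout library but was not called by edgeR (log2 fold change 0.43, adjusted p = 0.0651). Stat2, Stat4 and Stat6 had log2 fold changes of 0.01, 0.17 and 0.27, none of them called by edgeR.

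All 15 other JAK-STAT inhibitors on the list were tested, and 0 were called by edgeR, DESeq2 or limma, with 2 at an unadjusted p under 0.05. These were the phosphatase gene Ptpn11 (log2 fold change -0.53, adjusted p = 0.0757) and Pias3, which encodes an inhibitor of STAT3 (-0.55, adjusted p = 0.0971). The SOCS genes Socs4 to Socs7 had log2 fold changes between -0.2 and 0.23. Neither of the 2 other PIM kinases was called by edgeR, DESeq2 or limma, with 1 at an unadjusted p under 0.05: Pim2 stood at 0.42 (adjusted p = 0.166) and Pim3 at 0.18 (adjusted p = 0.471).

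Of 16 tested genes linked to STAT5 as targets, 8 fell and 1 rose, and the list had its median at -0.42 on the log2 scale. The 4 with the smallest p were Il2ra, the granzyme gene Gzmb, the effector factor gene Tbx21 and Prdm1, which encodes the repressor Blimp-1. Gzmb fell to 16.4 ± 11 FPKM in knockout, against 385 ± 221 in WT (log2 fold change -4.6, adjusted p = 0.00048), and stood at -5.27 without knockout replicate 2 and -3.97 without WT replicate 1. Tbx21 fell to 13.1 ± 1.45 against 34.4 ± 8.9 FPKM (-1.4, adjusted p = 0.00105), and Prdm1 to 1.09 ± 0.593 against 6.05 ± 1.64 FPKM (-2.5, adjusted p = 0.00124), knockout against WT (SD, n = 3 each). The survival gene Bcl2 was the member of that list that rose, to 58.1 ± 5.76 FPKM in knockout, against 37.9 ± 6.88 in WT (0.55, adjusted p = 0.0299). Its call ended without any 1 of the libraries other than WT replicate 2 (adjusted p = 0.0544 to 0.0676). Without 1 library the number that fell was 6 to 8. Many of these genes also mark effector cells, and the falls of cycling markers ran beside theirs, a part that was not tested. The list was chosen with earlier results of these data known, so its count of falls is a description and no separate evidence.

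Of 12 tested genes linked to STAT3, 0 rose by edgeR, DESeq2 or limma or at an unadjusted p under 0.05, 3 fell, and the median was -0.09. Besides Prdm1 these were Hif1a, a factor of the hypoxia response (44.9 ± 6.5 FPKM in knockout and 75.9 ± 4.12 in WT, log2 fold change -0.77, adjusted p = 0.00199), and the survival gene Bcl2l1 (16.4 ± 1.93 and 23.3 ± 2.99 FPKM, -0.51, adjusted p = 0.0494; SD, n = 3 each). Bcl2l1 lost its call under 8 alternatives, at adjusted p-values up to 0.197. Both Prdm1 and Bcl2l1 are also counted among the falls of the STAT5-linked list, and Hif1a is not on that list. Without WT replicate 1, 2 genes linked to STAT3 were higher.

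**Figure D4:**
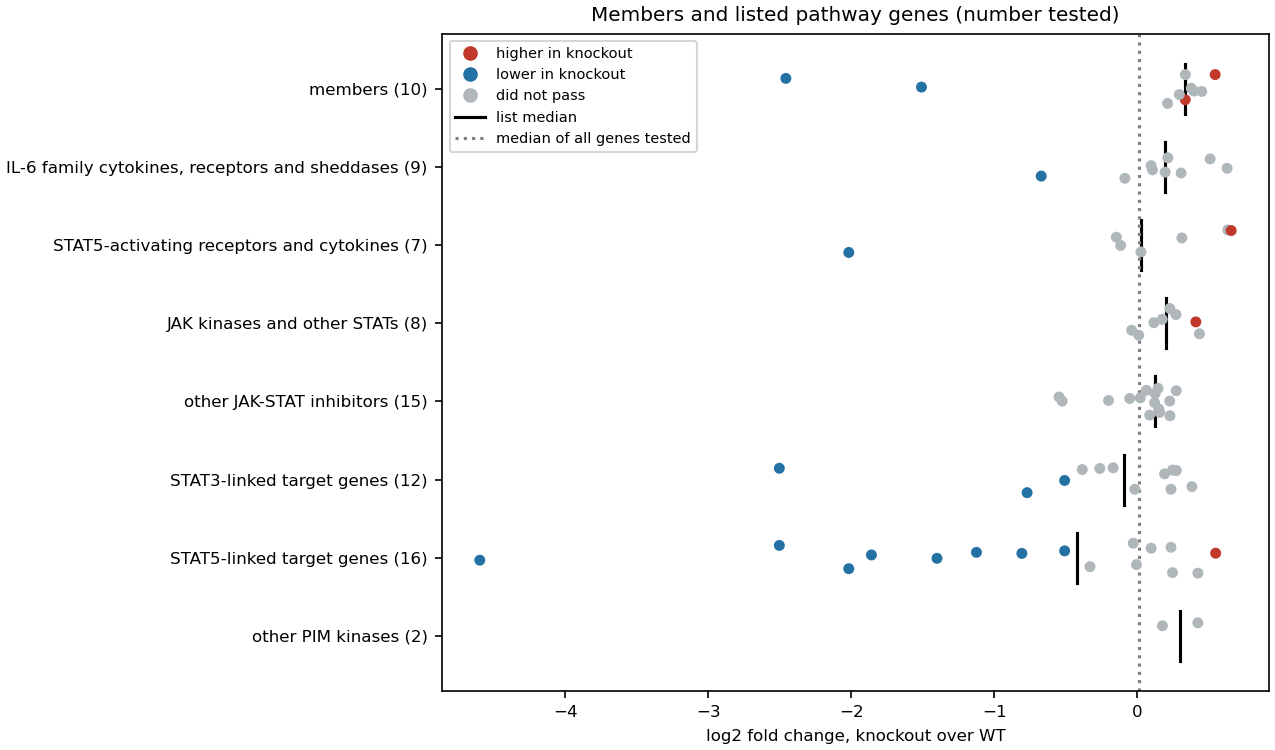
Log2 fold change (knockout over WT, edgeR) of the members and of the tested genes of each pathway list; points are genes, red for higher, blue for lower and grey for those that did not pass, the black line is the list's median and the dotted line the median of all genes tested. The STAT5-linked list has its median at -0.42 and 8 genes lower, and the 15 other inhibitors hold no called gene. All lists were chosen with earlier results of these data known. Over all genes tested, 3.14% were called higher and 8.77% lower.

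The genes of these lists with the profile most like each called member were found by the root mean square distance between centred log2(FPKM + 1) values over the 6 libraries, among 59 or 60 genes with a mean of at least 5 FPKM. For Il6st these were Jak1 (distance 0.123) and Il27ra (0.133), and for Stat3 they were Stat6 (0.088) and Il27ra (0.0998). For Cish they were Il2ra (0.284) and Tbx21 (0.285), and for Socs2 Tbx21 (0.272) and Tnfrsf4 (0.297), a costimulatory receptor gene. Socs2 itself lies below that minimum, as does Prdm1, which was therefore not compared. Adding 1 to so low a level shrinks its change: Socs2 stood at -1.48 by limma on log2(FPKM + 1) and at -2.46 by edgeR. The genes named for Socs2 depend on both choices.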

How the data were processed

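Total RNA from 6 sorted samples was sequenced after a standard Illumina preparation, per the labels' protocols. CASAVA, Bowtie2, RSEM and mm10 are named, per the submitters' processing notes. The deposited tables give, per the file headers, an expected count, the FPKM and a transcript length for each gene, and between 25% and 26.2% of expected counts were not whole. A gene missing from a table was taken as 0. The length column was used in no value given here. Symbols came from RefSeq (16707 of 16749 gene numbers). Expected counts were rounded, and edgeR 4.0.16 (R 4.3.3) was run with TMM scaling and its quasi-likelihood F test, which is two-sided. The 10890 genes tested reached 1 FPKM in 3 or more libraries, with Benjamini-Hochberg adjustment over all of them and a threshold of 0.05. Standard errors are the log2 fold change divided by the root of F, and intervals (95%) use its degrees of freedom. The biological coefficient of variation was 0.156.

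On simulated counts for 10890 genes, the test recovered 88% of 2-fold changes and 98% of 4-fold changes, with 12 false calls among 198. Every simulated gene had the same biological coefficient of variation, 0.156, and rises and falls were equally many. In the data 342 genes were higher and 955 lower, genes differ in their variation, and smaller changes were not simulated. These rates therefore need not hold for the data. No libraries were duplicates. Nothing says which animals the samples came from, so p-values reflect only how these samples vary, which may be technical.

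The members, lists and motifs were chosen with earlier results of these data known. Named are all members, Id2, up to 4 called genes of each list (or the 2 with the smallest p) and the leading marker. Il6, Il27ra, Il2rb, Il2rg, Il7r, Il21r, Il15ra, Bcl2, Pim3, Tcf7, Jchain, Zbtb46, Sparc, Thy1, Jak3, Stat2, Stat4, Stat6, Socs4 to Socs7 and the absent markers were named after their values were seen. The E-box motifs were added after the data were seen. Lists are described by counts and medians. Alternatives were DESeq2 1.42.0, its size factors, limma 3.58.1 on log2(FPKM + 1) or log2(FPKM + 0.1), a minimum of 5 FPKM or no filter, a block for the replicate number, the B cell marker sum as a covariate, library sizes computed without the 50 most abundant genes, leaving out each library and, added after the data were seen, Stat5a and Stat5b summed. Protein sequences were not used here. Figures were drawn with matplotlib 3.10.9.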

Additional observations from a re-analysis of the deposited data

How the results depend on the processing

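Cish and Socs2 were lower in every alternative that tested them, and all 10 members kept their sign throughout. With an FPKM minimum of 5 Socs2 was no longer tested, so 1 member was lower. Without 1 library, 0 to 2 members were higher, 84 to 480 genes were higher and 517 to 1082 lower. Members higher numbered 1 without knockout replicate 1, WT replicate 2 or WT replicate 3 and 0 without knockout replicate 3. Genes higher numbered 213, 84, 210 and 121 without knockout replicate 1, knockout replicate 3, WT replicate 2 and WT replicate 3, and genes lower 517 and 564 without knockout replicate 3 and WT replicate 3. Log2 fold changes over all alternatives were -1.64 to -1.32 for Cish, -2.72 to -1.48 for Socs2, 0.49 to 0.62 for Il6st and 0.3 to 0.37 for Stat3, which passed in 8 of 16, counting the sum of Stat5a and Stat5b, which was added after the data were seen. The smallest size of Socs2 came from limma on log2(FPKM + 1). Pim1 and Socs3 passed in none of 16, Socs1 and Il6ra in 1 of 16, and Stat5a and Stat5b, without their sum, in 1 of 15.

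Replicate numbers are shared between the genotypes, but same-numbered libraries did not deviate together (r = 0.118, 0.075 and -0.0303 over genes), and knockout replicate 2 correlated best with WT replicate 3. With the replicate number as a block, 1 member was higher, as Stat3 had an adjusted p of 0.0539, and 295 genes were higher and 888 lower.

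Socs2 rests on 41 counts in knockout and 242 in WT, fewer than any other member, and its standard error (0.44) was the largest of the 10.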
